A study of Mus musculus with 6 samples.

Results

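The 9 genes described here encode enzymes of the mitochondrial tricarboxylic acid (TCA) cycle and were chosen by name, without succinate dehydrogenase: Cs, Idh3a, Idh3b, Idh3g, Ogdh, Sucla2, Suclg1, Fh1 and Mdh2. Each matched 1 identifier among the 56748 Ensembl mouse genes in the deposited files. They were measured by RNA sequencing in the mouse mammary carcinoma line 4T1, labelled as wild type in genotype, with 3 libraries from each of 2 groups. The treated cells received 125 µg/mL of Au/MoS2/Bi2S3 particles, a heterojunction material made for photothermal and photodynamic tumour treatment, were kept with them overnight, were exposed to near-infrared (NIR) light for 8 min and were incubated for 24 h more. The control cells are labelled only as the control group, and both groups are labelled as collected at 48 h. No group with particles alone or light alone was analysed here. The series' design text mentions RNA pooled from 3 individuals, without saying what an individual is for a cell line, and the labels do not say whether the libraries of a group came from separate cultures, so the p-values measure only the spread between these libraries, which may be technical.

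The TCA cycle oxidises acetyl-CoA in the mitochondrial matrix and passes the electrons to the respiratory chain as NADH and FADH2. Citrate synthase (Cs) joins acetyl-CoA to oxaloacetate, NAD-dependent isocitrate dehydrogenase (Idh3a, Idh3b and Idh3g) and the 2-oxoglutarate dehydrogenase complex (Ogdh) carry out the oxidative decarboxylations, and succinyl-CoA synthetase (Suclg1 with Sucla2 or Suclg2) makes ATP or GTP. Fumarase (Fh1) and malate dehydrogenase (Mdh2) then return the cycle to oxaloacetate. All of these proteins are encoded in the nucleus and imported into mitochondria, and in tumour cells the cycle also supplies citrate and amino acid precursors for growth.

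Transcripts of citrate synthase, of the regulatory subunits of isocitrate dehydrogenase and of fumarase were lower in treated cells, by 2.14-fold to 2.80-fold. Suclg1 and Mdh2 were lower by 1.57-fold and 1.59-fold. Idh3a, the catalytic subunit of isocitrate dehydrogenase, Ogdh and Sucla2 did not pass the test. In all, 6 of the 9 genes were called lower and 0 higher (limma, Benjamini-Hochberg adjusted p under 0.05), where 28.3% of the 11118 genes tested were called lower and 27.9% higher. At an unadjusted p under 0.05, 7 were lower and 0 higher by limma, where 31.4% of all genes tested were lower and 30.7% higher. Every treated library lay below every control library for 7 of the 9, as it did for 34.1% of all genes tested, and above for 0, against 33.6% of all genes. The median log2 fold change of the 9 genes was -0.64, and that of all genes tested was -0.01. All 9 genes passed the filter of 1 FPKM (fragments per kilobase of exon per 1e6 fragments) in at least 3 libraries, and they did so in every library of both groups. Among the 6687 genes that reached 5 FPKM in at least 3 libraries, which include all 9, the median log2 fold change was -0.24. With that filter 2516 genes were called lower and 1385 higher, and of the 9, 7 were lower and 0 higher. Fold changes between means are of FPKM, whereas log2 fold changes (treated over control, with their standard error) are on the log2(FPKM + 1) scale, and a called gene is lower relative to the typical gene, as the authors' scaling holds it.

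Upstream sequence is shown for the 2 isocitrate dehydrogenase genes with the largest falls among the subunits, and for the 1 cycle gene whose promoter window held a sought motif. These are the 250 bases before the annotated start (RefSeq, GRCm38.p6) of Idh3b (chr2:130284452-130284701, minus strand), Idh3g (chrX:73786898-73787147, minus strand) and Sucla2 (chr14:73552536-73552785, plus strand). Gene spans given below are those of GENCODE M21, whose starts can differ from these. The stretch of Sucla2 lies wholly inside its GENCODE span (73525319 to 73596142). That of Idh3b lies partly inside its span (130279309 to 130284547), and that of Idh3g lies outside its span. Capitals mark the match to the NRF1 core.
Idh3b: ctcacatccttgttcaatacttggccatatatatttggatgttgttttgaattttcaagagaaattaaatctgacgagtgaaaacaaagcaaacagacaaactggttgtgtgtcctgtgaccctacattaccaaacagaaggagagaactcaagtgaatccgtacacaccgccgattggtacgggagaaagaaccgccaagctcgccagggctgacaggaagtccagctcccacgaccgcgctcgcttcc
Idh3g: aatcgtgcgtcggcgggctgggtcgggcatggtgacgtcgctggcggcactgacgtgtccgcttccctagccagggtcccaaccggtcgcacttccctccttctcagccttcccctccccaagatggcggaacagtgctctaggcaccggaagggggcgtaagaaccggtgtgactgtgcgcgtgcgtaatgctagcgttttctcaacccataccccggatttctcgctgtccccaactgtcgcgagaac
Sucla2: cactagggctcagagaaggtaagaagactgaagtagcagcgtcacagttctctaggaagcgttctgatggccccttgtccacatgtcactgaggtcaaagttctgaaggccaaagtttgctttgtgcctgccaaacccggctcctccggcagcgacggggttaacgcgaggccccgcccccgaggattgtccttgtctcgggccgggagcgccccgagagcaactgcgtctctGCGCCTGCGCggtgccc

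Windows from 250 bases before to 50 after the start were found for 8 of the 9 genes, and none was given for Idh3a. Searched on both strands, the core of the site of nuclear respiratory factor 1 (NRF1: GCGC, any base, then TGCGC) was found in 1 of the 8 genes (Sucla2) and in 4.603% of all 32851 windows. That match begins at base -17 from the RefSeq start, which lies inside the GENCODE span of Sucla2. The estrogen-related receptor element TCAAGGTCA was found in 0 of the 8 and in 0.423% of windows, and the ETS site CCGGAAGT in 0 of the 8 and in 3.89%. The upstream sequence of Idh3b was 46.8% G or C with 11 CpG dinucleotides, and that of Idh3g was 62.8% with 24.

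Depth, inferred from the steps between low FPKM values, was 32.6 to 38.1 M reads (M, 1e6) per library. For the 9 genes that meant 645 to 18297 reads per gene and library, and a counting error of at most 5.57% of a value when the mates of a pair are taken as 1 observation. Treated libraries resembled each other more than control libraries did, with mean chi-square values per gene of 10.4 to 14.4 between treated pairs and 166 to 522 between control pairs. Ribosomal protein genes held 13.2% to 15.0% of the summed FPKM in treated libraries and 21.9% to 23.7% in control libraries. The mRNAs encoded by the mitochondrial genome summed to 6640, 6605 and 7117 FPKM in treated 1, 2 and 3, and to 726, 5631 and 82.6 FPKM in control 1, 2 and 3. The part of these differences in the results below was not tested. Of 7 epithelial markers, Krt8, Krt18 and Krt19 were high in every library, and Cdh1, Krt14 and Cldn4 were under 1 FPKM in every library. The remaining marker, Epcam, had 0.76, 0.96 and 0.97 FPKM in treated libraries, against 4.43, 4.81 and 5.74 FPKM in control libraries. The 7 markers summed to 741 to 777 FPKM in treated libraries and 1536 to 2262 in control libraries. Of 21 markers of fibroblasts, leukocytes, endothelium, adipocytes and muscle, 17 were under 1 FPKM throughout. The fibroblast markers summed to 30.1 to 32.3 FPKM in treated libraries and 114 to 755 in control libraries, nearly all of it Col1a1, which tumour cells can also express. The leukocyte markers summed to 242 to 260 FPKM in treated libraries and 77.0 to 444 in control libraries, nearly all of it Cd68, while Adgre1 and Itgam were at 0 in every library.

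**Figure D1:**
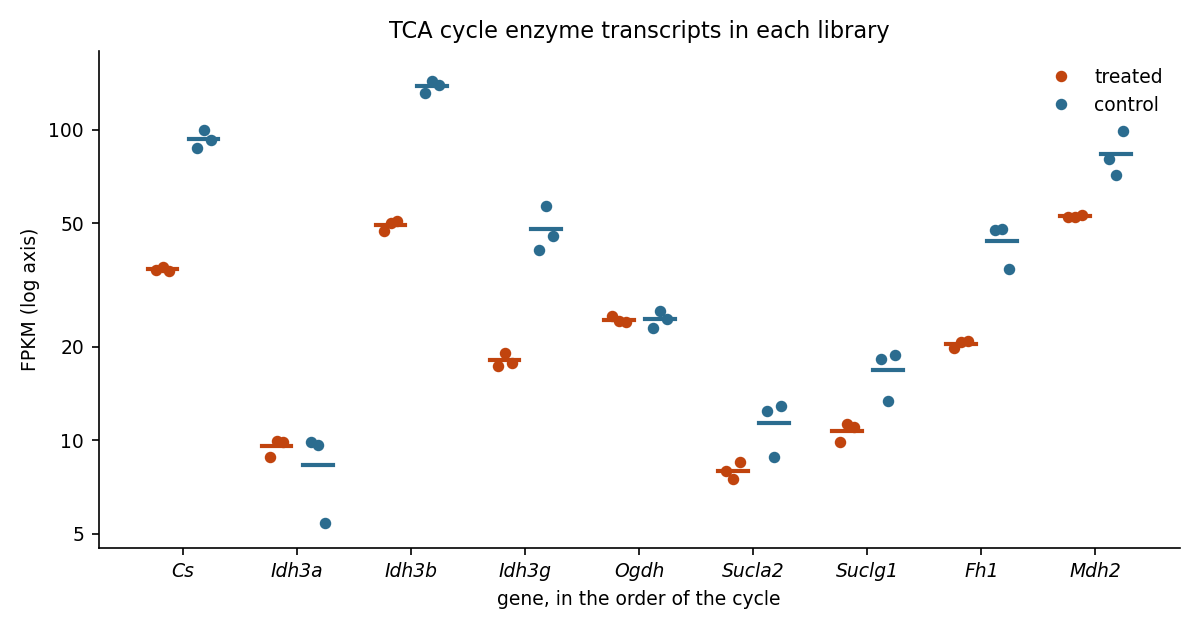
FPKM (log axis) of the 9 TCA cycle genes in each library, treated on the left and control on the right of each pair, with points for libraries and bars for the mean of 3. For 7 of the 9 genes every treated library lies below every control library, while Idh3a and Ogdh overlap between the groups.

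Citrate synthase, which commits acetyl-CoA to the cycle, was among the most clearly separated of these genes. Cs (ENSMUSG00000005683, GRCm38 chromosome 10, 128337734 to 128362479) stood at 35.5, 36.3 and 35.2 FPKM in treated 1, 2 and 3, against 87.7, 99.8 and 92.8 FPKM in control 1, 2 and 3. The groups lay far apart and the treated libraries were close to each other, with means that put Cs 2.62-fold lower. On the log2 scale Cs changed by -1.36 ± 0.11 SE (limma adjusted p = 0.000356), and it was called lower under all 15 alternatives tried, at -0.60 to -1.56. In bulk samples, fewer cells of a type and less RNA per cell cannot be told apart.

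Of the 3 subunits of isocitrate dehydrogenase, 2 were called lower and 1 was not called. The enzyme is built of a catalytic alpha subunit (Idh3a) with beta (Idh3b) and gamma (Idh3g) subunits, which are classed as regulatory. Idh3b (ENSMUSG00000027406, chromosome 2, 130279309 to 130284547) had 47.1, 49.99 and 50.9 FPKM in treated libraries, against 131.6, 143.8 and 139.3 FPKM in control libraries. It was 2.80-fold lower (log2 fold change -1.47 ± 0.11 SE, limma adjusted p = 0.000305), the largest fall of the 9. Its annotated exons overlap the antisense gene Nop56 by 5 bases.

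Idh3g (ENSMUSG00000002010, chromosome X, 73778963 to 73786897) had 17.4, 19.1 and 17.8 FPKM in treated libraries, against 41.1, 57.1 and 45.6 FPKM in control libraries. The groups lay apart, at a log2 difference of -1.35 ± 0.15 SE (limma adjusted p = 0.000808). Idh3b and Idh3g were each called lower under all 15 alternatives tried. Idh3a (ENSMUSG00000032279, chromosome 9, 54586334 to 54604661) had 8.82, 9.96 and 9.87 FPKM in treated libraries, against 9.90, 9.62 and 5.43 FPKM in control libraries. Control 3 was low and the other controls lay inside the treated range, so the groups overlapped. The log2 fold change of Idh3a was 0.22 ± 0.22 SE, with a 95% interval of -0.32 to 0.75 (limma adjusted p = 0.433). Without control 3 it was -0.03.

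Within each library, where scaling between libraries cancels, the beta subunit exceeded the alpha subunit less in treated cells. The ratio of Idh3b to Idh3a, in FPKM, was 5.34, 5.02 and 5.16 in treated libraries, against 13.3, 14.9 and 25.7 in control libraries. The ratio of Idh3g to Idh3a was 1.97, 1.91 and 1.80 in treated libraries, against 4.15, 5.93 and 8.40 in control libraries. Control 3 gave the highest value of both, and the groups did not overlap for either. On the log2(FPKM + 1) scale, Idh3a minus the mean of Idh3b and Idh3g was -1.56 ± 0.04 in treated libraries and -3.18 ± 0.44 in control libraries (SD, n = 3 each), a difference of 1.62. An exact two-sided permutation test gave p = 0.1, the smallest p that 3 against 3 libraries allow, and 0.2 adjusted over the 2 subunit comparisons fixed for testing. The members were chosen with earlier results of these data known, which that adjustment does not cover. The difference was 0.98 with quantile normalization and 1.08 after correction for GC, length and level. The ratio of Idh3b to Idh3g was 2.73 ± 0.12 in treated libraries and 2.93 ± 0.36 in control libraries, and here the groups overlapped.

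**Figure D2:**
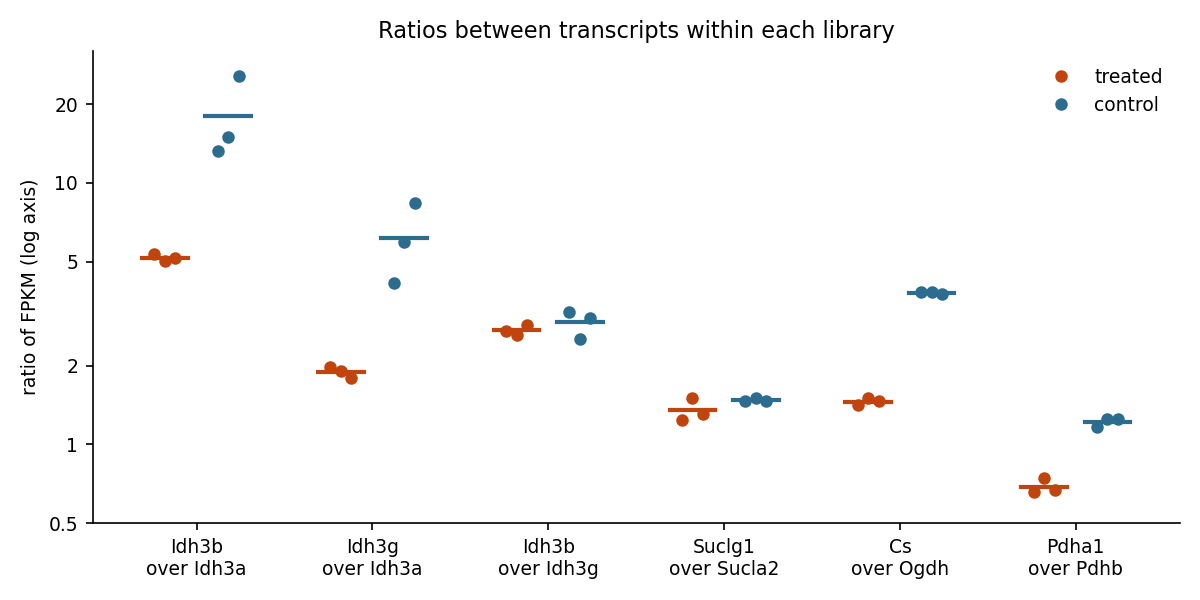
Ratios of FPKM between transcripts within each library (log axis), treated on the left and control on the right of each pair, with points for libraries and bars for the mean of 3. Idh3b over Idh3a averages 5.17 in treated and 18.0 in control libraries, Cs over Ogdh averages 1.46 in treated and 3.81 in control libraries, and Idh3b over Idh3g overlaps between groups.

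Ogdh, the decarboxylating subunit of the 2-oxoglutarate dehydrogenase complex, was not called under the authors' scaling. Ogdh (ENSMUSG00000020456, chromosome 11, 6291633 to 6356642) had 25.2, 24.2 and 24.1 FPKM in treated libraries, against 23.0, 26.0 and 24.6 FPKM in control libraries. All treated values lay inside the control range. On the log2 scale it changed by -0.0017 ± 0.10 SE (limma adjusted p = 0.989), with a 95% interval of -0.25 to 0.24 that excludes a fall of the size seen for Cs. When scaled to library size alone it was called higher (0.72, limma adjusted p = 0.001985), at a setting where the median of all genes tested stood at 0.60, and it was also called higher with quantile normalization (0.45, limma adjusted p = 0.0101). The ratio of Cs to Ogdh, a pair chosen after the values were seen, was 1.41, 1.501 and 1.46 in treated libraries, against 3.81, 3.84 and 3.77 in control libraries, so both groups were narrow and far apart.

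Of the 2 subunits of the ATP-making succinyl-CoA synthetase, Suclg1 was called lower and Sucla2 was not called. Suclg1, the shared alpha subunit (ENSMUSG00000052738, chromosome 6, 73248382 to 73276911), had 9.89, 11.3 and 11.1 FPKM in treated libraries, against 18.2, 13.4 and 18.9 FPKM in control libraries. This was a log2 difference of -0.59 ± 0.16 SE (limma adjusted p = 0.0192). Sucla2, the beta subunit of the ATP-making form (ENSMUSG00000022110, chromosome 14, 73525319 to 73596142), had 7.95, 7.50 and 8.49 FPKM in treated libraries, against 12.4, 8.85 and 12.9 FPKM in control libraries. Control 2 was the lowest control for both genes, and for neither did the groups overlap. The log2 fold change of Sucla2 was -0.45 ± 0.16 SE, with a 95% interval of -0.83 to -0.06 (limma adjusted p = 0.0517). Sucla2 was called lower under 4 alternatives: without control 2 (-0.60, limma adjusted p = 0.00392), with a minimum of 5 FPKM (0.0483), and after correction for GC and length (-0.66, 0.0173) or for GC, length and level (-0.60, 0.0278). The call of Suclg1 was lost without treated 1, 2 or 3 (limma adjusted p = 0.0843, 0.0606 and 0.0662), without control 1 (0.0689), with a replicate block (0.0515) and when scaled to library size alone. Its log2 fold change stayed between -0.53 and -0.62 when 1 of these libraries was left out. When scaled to library size alone the direction turned for Suclg1 (0.11) and for Sucla2 (0.23).

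The ratio of Suclg1 to Sucla2 was 1.24, 1.502 and 1.303 in treated libraries, against 1.47, 1.51 and 1.47 in control libraries. On the log2(FPKM + 1) scale, Sucla2 minus Suclg1 was -0.39 ± 0.13 in treated libraries and -0.53 ± 0.01 in control libraries (SD, n = 3 each), and the exact two-sided permutation test gave p = 0.3. The groups overlapped for this ratio, although 3 libraries a group cannot show that it was equal, and whether it differed from the shift between Idh3a and its partner subunits was not tested. The beta subunit of the GTP-making form, Suclg2, had 14.1, 13.6 and 13.8 FPKM in treated libraries, against 24.3, 28.9 and 29.9 FPKM in control libraries (log2 fold change -0.95 ± 0.12 SE, limma adjusted p = 0.00114). The call of Suclg2 was lost when scaled to library size alone (-0.24, limma adjusted p = 0.0999).

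Fumarase and malate dehydrogenase, which close the cycle, were both called lower, by 2.14-fold and 1.59-fold. Fh1 (ENSMUSG00000026526, chromosome 1, 175600374 to 175625635) had 19.8, 20.7 and 20.9 FPKM in treated libraries, against 47.5, 48.1 and 35.6 FPKM in control libraries. Control 3 was the lowest control and still lay above every treated library, at a log2 difference of -1.05 ± 0.15 SE (limma adjusted p = 0.00181). Mdh2 (ENSMUSG00000019179, chromosome 5, 135778480 to 135790398) had 52.5, 52.3 and 53.3 FPKM in treated libraries, against 80.7, 71.5 and 99.1 FPKM in control libraries. Control 3 was the highest control here, so the control libraries did not share 1 order across these genes. Mdh2 changed by -0.64 ± 0.15 SE on the log2 scale (limma adjusted p = 0.0112). Its call was lost without treated 1, 2 or 3 (limma adjusted p = 0.0559, 0.0558 and 0.0541) and after correction for GC, length and level (-0.13), and its direction turned when scaled to library size alone (0.09) and with quantile normalization (0.17). Scaled to library size alone, Fh1 was not called either (-0.33, limma adjusted p = 0.171).

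When scaled to library size alone, 3 of the 9 genes were called lower (Cs, Idh3b and Idh3g) and 2 higher (Idh3a and Ogdh), where 10.3% of all genes tested were called lower and 54.3% higher.

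**Figure D3:**
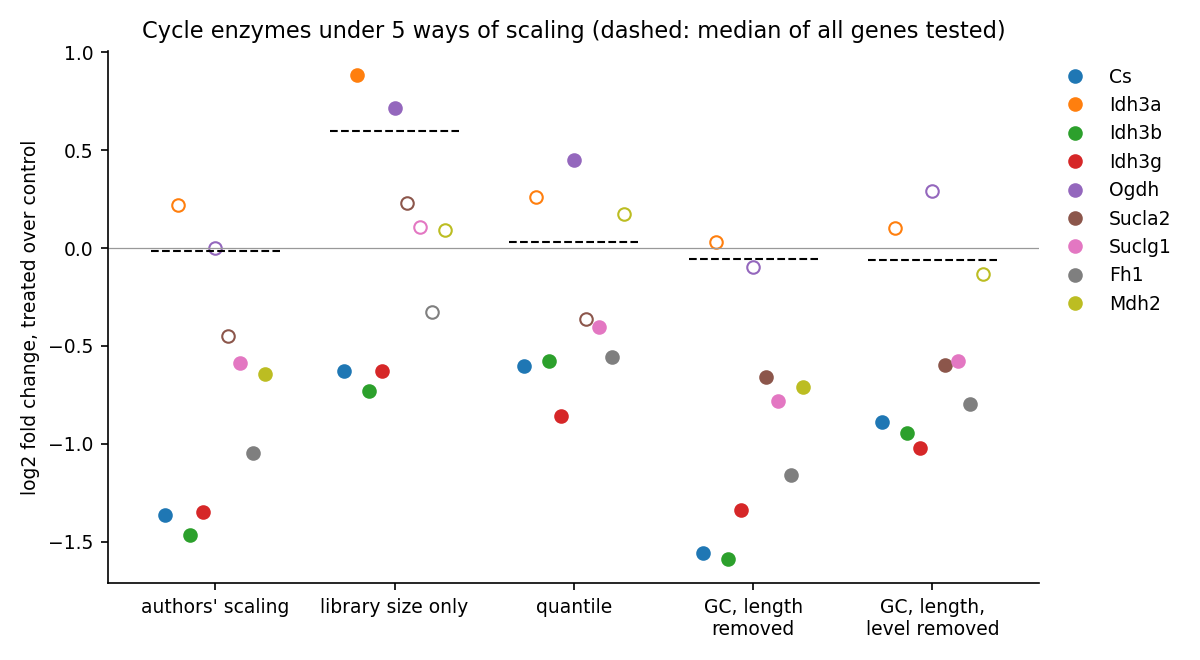
Log2 fold change (treated over control) of the 9 genes under the authors' scaling and 4 other ways of scaling, with filled points for genes called at a limma adjusted p under 0.05 and open points for genes not called. Dashed lines give the median of all genes tested, which is 0.60 with library size only, and Cs, Idh3b and Idh3g are filled and below 0 in every column.

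Over the 9 genes, the range of levels was narrower in treated libraries. FPKM is per length, and the values fit the combined length of a gene's annotated exons, which need not be that of the transcript expressed. Levels of different genes are therefore compared only roughly. The highest of the 9 exceeded the lowest by 6.61-fold, 6.98-fold and 6.28-fold in treated 1, 2 and 3, against 13.3-fold, 16.2-fold and 25.7-fold in control 1, 2 and 3. Levels over all genes differed too. The 100 genes with the most FPKM held 30.0% to 30.3% of the summed FPKM in treated libraries and 43.5% to 47.2% in control libraries. The part of that difference in the narrower range of the 9 was not tested. In treated cells the order by mean FPKM was Mdh2 (52.7), Idh3b (49.3), Cs (35.6), Ogdh (24.5), Fh1 (20.5), Idh3g (18.1), Suclg1 (10.7), Idh3a (9.55) and Sucla2 (7.98), with Suclg1 and Idh3a overlapping in range. In control cells it was Idh3b (138.2), Cs (93.4), Mdh2 (83.7), Idh3g (47.9), Fh1 (43.8), Ogdh (24.5), Suclg1 (16.8), Sucla2 (11.4) and Idh3a (8.32), and 3 neighbouring pairs overlapped: Cs with Mdh2, Idh3g with Fh1, and Sucla2 with Idh3a. The 9 genes together held 224, 231 and 232 FPKM in treated libraries, against 452, 478 and 474 FPKM in control libraries. As a share of the summed FPKM of a library they held 0.0948%, 0.0956% and 0.0983% in treated libraries, against 0.1002%, 0.106% and 0.0890% in control libraries, so the groups overlapped on that scale.

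Most of the other cycle enzymes and subunits reported here were called lower too. Of 8 genes (Idh2, Dlst, Dld, Suclg2 and the succinate dehydrogenase subunits Sdha, Sdhb, Sdhc and Sdhd), 6 were called lower and 0 higher by limma, beside 28.3% and 27.9% of all genes tested. At an unadjusted p under 0.05 the counts were also 6 and 0, beside 31.4% and 30.7% of all genes. The median log2 fold change of the 8 was -0.67. Sdha, Sdhb and Sdhd were called lower at limma adjusted p = 0.00262, 0.0201 and 0.0383. These 3 genes and the counts of the 8 were not followed under the alternatives. The succinate dehydrogenase subunit Sdhc had 34.6, 33.2 and 35.1 FPKM in treated libraries, against 61.7, 44.0 and 116.7 FPKM in control libraries (limma adjusted p = 0.0496). Its call was lost under 9 of 15 alternatives, and its log2 fold change of -0.97 was -0.59 without control 3. The 2 not called were Idh2, the NADP-dependent mitochondrial isocitrate dehydrogenase, and Dld, the dihydrolipoamide dehydrogenase shared with the pyruvate dehydrogenase complex. Dlst, the core subunit of the complex to which Ogdh belongs, named after its values were seen, had a log2 fold change of -0.30 ± 0.10 SE (limma adjusted p = 0.036). Its call was lost without control 1 and without treated 1, 2 or 3 (limma adjusted p between 0.0783 and 0.152), with a weight per group (0.0844), with a replicate block (0.149) and with quantile normalization (0.476). When scaled to library size alone Dlst was called higher (0.40, limma adjusted p = 0.0123). The ratio of Ogdh to Dlst was 1.88 ± 0.11 in treated libraries and 1.51 ± 0.10 in control libraries (SD, n = 3 each).

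Genes of pyruvate import and of the pyruvate dehydrogenase complex, which makes the acetyl-CoA for Cs, included calls in both directions. Of 13 genes, 12 were tested, 5 were called lower, 1 higher and 6 not called, beside 28.3% lower and 27.9% higher among all genes tested, with a median of -0.27. Pdha1, the catalytic alpha subunit, had 15.1, 16.9 and 16.2 FPKM in treated libraries, against 39.5, 32.3 and 39.4 FPKM in control libraries (log2 fold change -1.15 ± 0.12 SE, limma adjusted p = 0.000764). Its exons overlap the antisense gene Map3k15 by 603 bases, so its values are uncertain where the strand setting is not given. Its partner subunit Pdhb was not called (-0.36 ± 0.13 SE, limma adjusted p = 0.0565), and the ratio of Pdha1 to Pdhb, chosen after the values were seen, was 0.690 ± 0.045 in treated libraries and 1.22 ± 0.05 in control libraries. Pdk1, a kinase that inhibits the complex, was the 1 called higher, at 20.2 ± 1.00 FPKM in treated and 15.4 ± 1.16 FPKM in control libraries (limma adjusted p = 0.0262), a call lost under 7 of 15 alternatives. Of the other kinases of the family, named after their values were seen, Pdk2 and Pdk3 were called lower (log2 fold changes -0.71 and -0.77, limma adjusted p = 0.00228 and 0.00196), and Pdk4 was below the filter. Mpc2, a subunit of the mitochondrial pyruvate carrier, was called lower at 1.66 ± 0.31 FPKM in treated and 4.51 ± 2.32 FPKM in control libraries (limma adjusted p = 0.0352), a call lost under 6 of the 14 alternatives that tested it.

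Of 17 genes that feed or drain the cycle, 16 were tested, 3 were called lower (Glud1, Slc25a1 and Mdh1), 2 higher (Pcx and Slc25a10) and 11 not called, with a median of -0.14. Both counts are smaller shares than the 28.3% lower and 27.9% higher of all genes tested. The exons of Slc25a10 overlap the antisense gene Gm11788 by 228 bases, and those of Mdh1 overlap the antisense gene Wdpcp by 52. Pcx, which encodes pyruvate carboxylase and refills oxaloacetate, had 7.70, 8.64 and 7.55 FPKM in treated libraries, against 3.74, 3.87 and 5.10 FPKM in control libraries. It was 1.88-fold higher (log2 fold change 0.78 ± 0.14 SE, limma adjusted p = 0.00394) and was called higher under all 15 alternatives tried. Glud1, glutamate dehydrogenase, which makes 2-oxoglutarate from glutamate, had 34.8, 36.4 and 37.4 FPKM in treated libraries, against 90.3, 71.9 and 109.8 FPKM in control libraries (-1.28 ± 0.17 SE, limma adjusted p = 0.0016). Both genes had groups that did not overlap, and they lay on opposite sides of the typical gene.

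**Figure D4:**
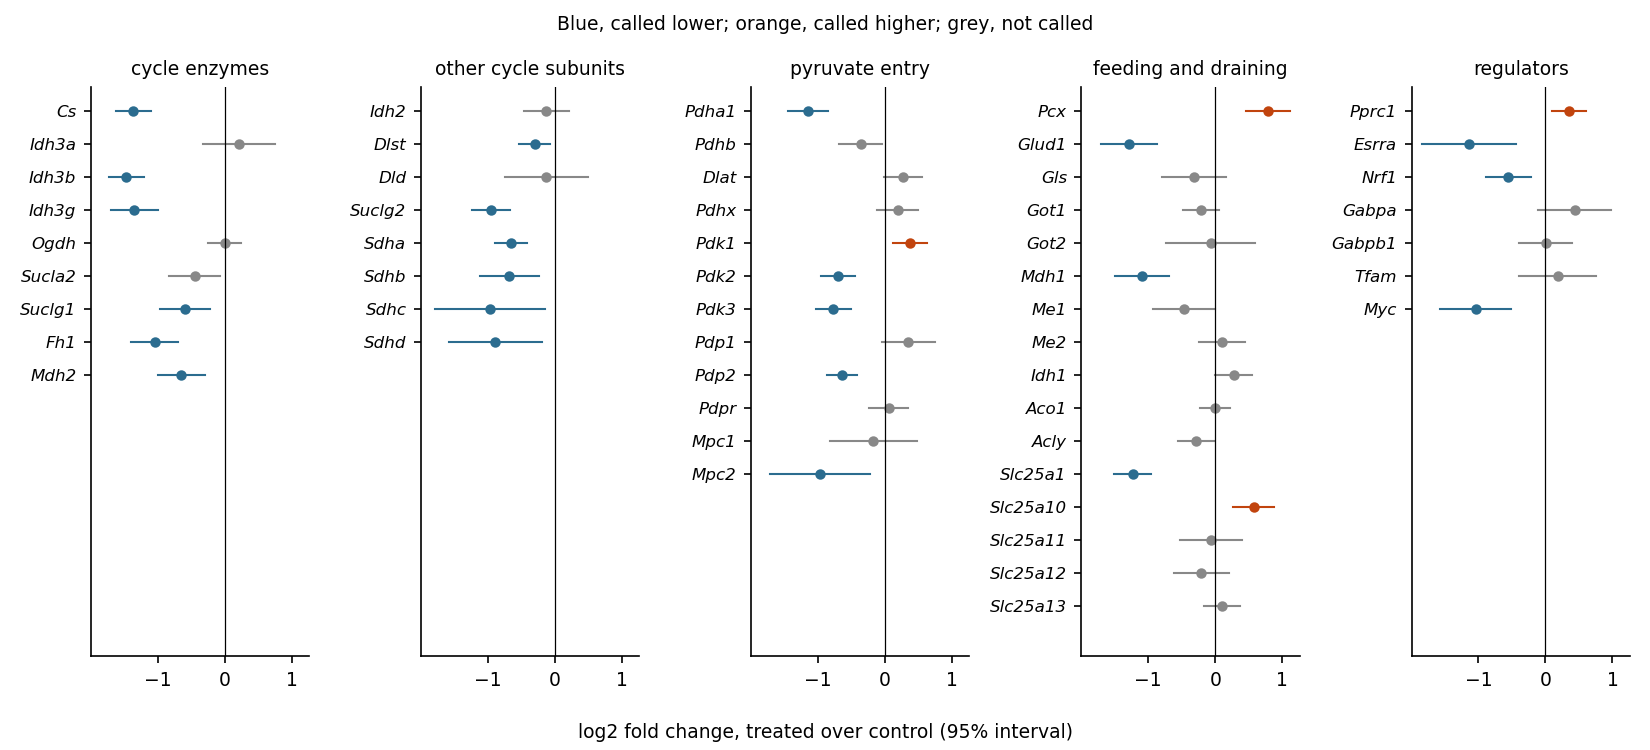
Log2 fold change (treated over control) with its 95% interval for the tested genes of each list: the 9 cycle enzymes, other cycle subunits, pyruvate entry, feeding and draining enzymes and carriers, and regulators. Cs, Idh3b and Idh3g have the lowest values among the 9, and intervals of Idh3a and Ogdh cross 0.

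Among 9 transcriptional regulators of mitochondrial genes, 7 were tested, 3 were called lower (Esrra, Nrf1 and Myc), 1 higher (Pprc1) and 3 not called, beside 28.3% lower and 27.9% higher among all genes tested. Esrra, the estrogen-related receptor alpha, had 7.30, 6.42 and 6.46 FPKM in treated libraries, against 14.8, 10.8 and 25.5 FPKM in control libraries (log2 fold change -1.14 ± 0.29 SE, limma adjusted p = 0.0167). Its exons overlap those of Trmt112 on the other strand and of Mir6990, and its call was lost without treated 1, 2 or 3 (limma adjusted p = 0.0512, 0.0598 and 0.0625) and when scaled to library size alone (-0.46, limma adjusted p = 0.133). Pprc1, a coactivator of the PGC-1 family, had 5.45 ± 0.41 FPKM in treated and 4.06 ± 0.25 FPKM in control libraries (limma adjusted p = 0.0285), a call lost under 8 of the 14 alternatives that tested it. The exons of Pprc1 overlap the antisense gene Ldb1 by 177 bases. The calls of Sdhc, Pdk1, Mpc2 and Pprc1 were each lost without control 1 and without treated 1, 2 or 3 (limma adjusted p between 0.0636 and 0.129). Ppargc1a and Ppargc1b, the other coactivators of that family, were below the filter.

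The genes outside these lists whose log2(FPKM + 1) over the 6 libraries was most like the mean of the 9 were Rpl4, Cenpa and Rpl7a, with Pearson r of 0.9996, 0.9994 and 0.9992. The 6 libraries come from only 2 groups, and 10.8% of all genes tested had an r above 0.95, so this is a description of the most similar profiles only. Rpl4, a ribosomal protein gene, averaged 910.1 FPKM in treated and 3123 FPKM in control libraries, and Cenpa, a centromeric histone gene, averaged 7.81 FPKM in treated and 21.9 FPKM in control libraries.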

How the data were processed

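The authors deposited 1 FPKM value per gene and library, per the file headers, from mRNA selected on poly-T beads and read as pairs of 150 bp, per the labels' protocols. Not given in the sources used here are the aligner, counter, genome build, annotation and strand setting. Identifiers were matched to GENCODE M21 (GRCm38) for 52073 of 56748 genes. The deposited FPKM hold the typical gene level between libraries, since the library size they imply is 1.32 to 1.33 times the recovered reads in treated libraries and 0.719 to 0.839 times in control libraries. With GENCODE exon lengths, 92.3% to 93.4% of the values below 200 reads were within 0.02 of a whole read. Reads are not independent molecules, so this bears on counting error only.

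Tests were run with limma 3.58.1 in R 4.3.3 (trended prior, group as the only term) on log2(FPKM + 1), over the 11118 genes that reached 1 FPKM in 3 or more libraries, with Benjamini-Hochberg adjustment over all of them. On simulated data the procedure was checked only for recovery of planted shifts, with equal spread in both groups. False calls were not counted. Subunit differences were tested by exact permutation over libraries in scipy 1.17.1. The genes named were all 9 enzymes, the called genes with the largest rise and fall of each related list, and the 3 most similar profiles. A gene of the list of other cycle enzymes is not reported here. Further genes and ratios in the text were picked with their values in view. The members and lists were chosen with earlier results of these data known. Alternatives covered the pseudocount, the filter, scaling, trends in GC content, length and level, weights per group, a replicate block and leaving out each library.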

Additional observations from a re-analysis of the deposited data

How the results depend on the processing

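Cs, Idh3b and Idh3g were called lower under all 15 alternatives. Of the 9 cycle enzymes, 6 were called lower, against 3 when scaled to library size alone and 4 to 7 when 1 library was left out. None was called higher, against 2 when scaled to library size alone (Idh3a and Ogdh), 1 with quantile normalization (Ogdh) and 0 when 1 library was left out. The median of all genes tested was 0.60 when scaled to library size alone. Among all 11118 genes tested, 3141 were lower and 3099 higher, against 1149 and 6032 when scaled to library size alone. With quantile normalization of the same genes, 2725 were lower and 3026 higher. With a minimum of 5 FPKM, 2516 of the 6687 genes tested were lower and 1385 higher, with a median of -0.24. When 1 library was left out, 2011 to 3585 were lower and 1542 to 3637 higher. Leaving out any library also removes genes from the test, since the filter still asks for 3 libraries. Without a treated library 10353 to 10366 genes were tested, and without a control library 10833 to 10866, against 11118 in the main fit. The cause of the other shifts was not tested. The difference of Idh3a from Idh3b and Idh3g was 1.62, against 0.98 with quantile normalization, 1.08 after correction for GC, length and level, and 1.39 to 1.83 when 1 library was left out. That of Sucla2 from Suclg1 was 0.14, against 0.042 and -0.020 under the same settings and 0.091 to 0.21 when 1 library was left out.

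The direction turned for genes near 0 or under a change of scaling. Ogdh stood at 0.72 when scaled to library size alone, 0.45 with quantile normalization and 0.29 after correction for GC, length and level, and at -0.046 to 0.040 when 1 library was left out. Idh3a was at -0.030 to 0.35 when 1 library was left out. When scaled to library size alone, Dlst, Sucla2, Suclg1 and Mdh2 stood at 0.40, 0.23, 0.11 and 0.092, and Mdh2 at 0.17 with quantile normalization.

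The replicate numbers are shared between groups, and deviations of same-numbered libraries correlated at -0.054, -0.111 and -0.140. These values show no pairing, but with 3 libraries a group they cannot exclude it. With a replicate block, 5 of the 9 were called lower (Suclg1 was not, limma adjusted p = 0.0515), and 2669 genes were lower and 2618 higher in all. Counting error was at most 5.57% of a value for the 9 genes.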
